A study of Homo sapiens with 8 samples.

Results

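The genes described here are 42 genes that act in G2 and mitosis, chosen by symbol. All 42 were found in the deposited table of 20263 genes, and all 42 were among the 11827 genes that passed a filter of a mean of 1 CPM or more (counts scaled to the library total) across the 8 libraries, so none was lost to low counts. The cells were MHCC-97H, a line from a human hepatocellular carcinoma, kept for 24 hours in DMSO, the solvent, or in lenvatinib, a multi-kinase inhibitor whose targets include the VEGF and FGF receptors. RNA-seq gave 4 DMSO libraries, numbered 1 to 4, while the lenvatinib doses of 40, 60, 80 and 100 µM have 1 library each. No genetic change is named for any group. The labels do not say that libraries came from separate cultures, so the DMSO spread behind the p-values may be technical alone. Among the lenvatinib libraries the spread also holds differences between doses.

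A cell in G2 commits to division when cyclin B and CDK1 form an active kinase, which CDC25 phosphatases switch on and PLK1 and the Aurora kinases reinforce. Kinesins, centromere proteins and the spindle assembly checkpoint then attach and align chromosomes, and the anaphase-promoting complex with CDC20 ends mitosis by marking securin and cyclin B for destruction. Most of these genes are transcribed together late in the cycle, through the DREAM and B-MYB complexes and FOXM1, and as a group they track how many cells of a tumour population are dividing. In bulk RNA, fewer dividing cells and less RNA per dividing cell cannot be told apart.

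Before the comparison, 2 properties of the libraries bear on each value. The 60 µM library held 10181973 counts, against 30077668 to 37384578 in the other 7, so 3 counts, the limit that a count of 0 allows, stood at 0.483 CPM there and at 0.063 to 0.128 CPM elsewhere, for counting error only. Libraries also differed along the GC content of genes. The GC slope of a library, that is, how steeply its log2 values, relative to the average library, rise with the GC content of each gene's longest transcript (per 10 percentage points), was 0.28, -0.50, -0.99 and -0.10 in DMSO 1 to 4, and 0.67, 1.82, -0.58 and -0.60 at 40, 60, 80 and 100 µM. A positive slope means that GC-rich genes read high and AT-rich genes low. The G2 and mitosis genes are AT-rich: their median GC was 42.6%, from 34.2% in KIF20B to 59.3% in CDC25B, against 49.1% over all tested genes, and 25 of 42 (59.5%) lay below 45%, against 35.8% of all tested genes. Hepatocyte markers were nearly absent: TTR had no read, ALB, AFP, APOA1, APOA2 and TF had 2 to 10 reads in all, and HNF4A was the only one of 8 to pass the filter (with the GC covariate, log2 fold change -2.42, edgeR adjusted p = 0.0229). Summed hepatocyte markers were 7.25 to 10.2 CPM in DMSO and 1.19 to 7.56 CPM with lenvatinib. KRT8 and KRT18 of epithelial cells were abundant and made up nearly all of the sum of 5 epithelial markers (5036 to 14374 and 3688 to 13176 CPM). KRT19, EPCAM and CDH1 were nearly absent, with 4, 125 and 232 reads in all. Of 9 fibroblast, endothelial and immune markers 3 were at 0, and the 9 summed to 58.9 to 83.5 and 53.3 to 93.3 CPM. COL1A1 (23.9 to 42.5 CPM over the libraries) and PDGFRB (17.9 to 41.7 CPM) held most of that sum. The mitochondrial share of counts was 1.73% to 2.05% in DMSO and 1.35% to 2.09% with lenvatinib. The part of these levels in the results below was not tested. Strand was not given in the sources used here, and 6 of the 42 genes, BUB1B, FOXM1, NUSAP1, PLK1, PRC1 and SMC4, share over 10% of their exonic bases with another gene in GENCODE v29, so part of their reads may be the neighbour's.

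A stretch of 90 coding bases from the middle of 4 open reading frames (GENCODE v29, GRCh38, read 5′ to 3′ on the coding strand, G and C in capitals) shows how far the members differ in base composition. The kinesin KIF20B (chr10:89737527-89737616, codons 896 to 925) and the kinetochore kinesin CENPE (chr4:103147392-103147481, minus strand, codons 1337 to 1366) are the most AT-rich members, with transcripts of 34.2% and 35.3% GC. CDC20 (within chr1:43360342-43360540, codons 236 to 265) and CDC25B (within chr20:3801374-3801796, codons 276 to 305), whose stretches are split by an intron, come from transcripts of 57.9% and 59.3% GC.
KIF20B: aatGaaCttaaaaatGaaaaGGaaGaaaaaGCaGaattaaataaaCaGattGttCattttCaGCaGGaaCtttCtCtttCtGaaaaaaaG
CENPE: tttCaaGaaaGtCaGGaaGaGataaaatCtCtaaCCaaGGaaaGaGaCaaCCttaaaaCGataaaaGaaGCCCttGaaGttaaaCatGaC
CDC20: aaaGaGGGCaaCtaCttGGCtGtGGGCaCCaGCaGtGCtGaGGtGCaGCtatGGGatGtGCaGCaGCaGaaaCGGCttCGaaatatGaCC
CDC25B: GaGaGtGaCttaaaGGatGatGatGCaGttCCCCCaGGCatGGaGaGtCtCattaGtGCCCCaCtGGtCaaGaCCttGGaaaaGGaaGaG
The KIF20B stretch is 26.7% G and C and the CENPE stretch 34.4%, against 54.4% in CDC20.

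The G2 and mitosis genes differed widely between libraries of the same arm, and both lower doses read far below both higher doses. Their median level, in CPM scaled by TMM factors (edgeR's correction for library composition), was 22.2, 50.4, 76.1 and 32.7 in DMSO 1 to 4, and 14.2, 4.18, 48.3 and 46.8 at 40, 60, 80 and 100 µM. Ordered from the highest median to the lowest, the libraries were DMSO 3, DMSO 2, 80 µM, 100 µM, DMSO 4, DMSO 1, 40 µM and 60 µM. That is the reverse of their order by GC slope, except that DMSO 2, 80 µM and 100 µM, with medians and slopes close together, stand the other way round. DMSO 3, with the lowest GC slope, was the highest library for 29 of 42 genes (69.0%, against 35.9% of all tested genes), and 60 µM, with the highest slope, was the lowest for 27 (64.3%, against 48.6%) and the highest for 7 (16.7%, against 31.4%). The 40 µM library was the lowest for 6 others (14.3%, against 4.46%). Among these is CENPE, which had no read at either 40 or 60 µM, as a tie of these libraries was counted for 40 µM in both shares. The 40 and 60 µM libraries both lay below the whole DMSO range for 28 genes (66.7%, against 36.4%) and both above it for 5, FOXM1, CDC25B, AURKB, PTTG1 and UBE2C (11.9%, against 27.5%). The 80 and 100 µM libraries both lay inside the DMSO range for 33 genes (78.6%, against 63.0%). All 4 lenvatinib libraries lay below all 4 DMSO libraries for CCNB1 and KIF2C alone (4.76%, against 3.38% of all tested genes), none lay above (against 3.08%), and with scaling by library totals only none of the 42 was separated in either direction (against 3.49% below and 4.96% above). With each library's GC slope taken out, DLGAP5, PLK1 and CDC25B were separated, all lower (7.14%, against 10.1% of all tested genes), and none higher (against 9.15%), so the shares below DMSO are near the background in both cases. DLGAP5 had no read at 60 µM, so its adjusted level there rests on the count of 2 added before taking logs.

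**Figure D1:**
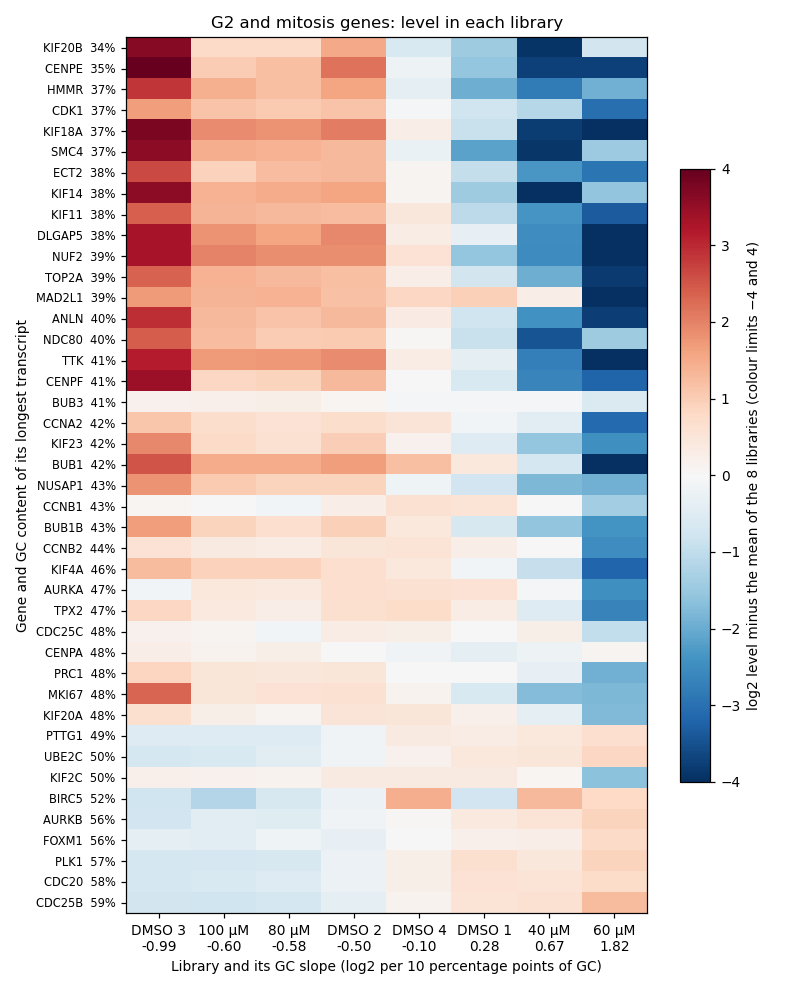
Level of each of the 42 genes (rows, ordered by transcript GC content) in each of the 8 libraries (columns, ordered by GC slope, in log2 per 10 percentage points), coloured by the log2 deviation from the gene's own mean (colours end at -4 and 4). Most genes at the top, such as CENPE, KIF18A and TOP2A, are high in DMSO 3 and low at 40 and 60 µM, CCNB1 is neither, and CDC25B, CDC20 and PLK1 at the bottom are low in DMSO 3 and high at 60 µM.

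The genes that drive mitotic entry show both directions. CCNB1, the mitotic cyclin (chr5:69167010-69178245, GRCh38, 43.2% GC), stood at 288, 239, 206 and 297 CPM in DMSO 1 to 4 and at 201, 74.5, 181 and 195 CPM at 40, 60, 80 and 100 µM. Its arms did not overlap, with 60 µM far below the rest. CDK1, the kinase it activates (chr10:60778331-60794852, 37.0% GC), stood at 15.9, 60.1, 87.2 and 26.8 CPM in DMSO and at 12.3, 3.38, 57.1 and 60.6 CPM with lenvatinib. Its 80 and 100 µM libraries lay between DMSO 4 and DMSO 3, and only the lower doses lay outside the DMSO range. PLK1, the Polo kinase that promotes entry and spindle assembly (chr16:23678822-23690367, 57.1% GC), stood at 636, 349.8, 250.5 and 481 CPM in DMSO and at 563, 759, 262 and 254 CPM with lenvatinib. CDC25B, a phosphatase that activates CDK1 (chr20:3786772-3806121, 59.3% GC), stood at 279, 149, 115 and 210.3 CPM in DMSO and at 289, 459, 118 and 111 CPM with lenvatinib. FOXM1, the transcription factor of the late cycle (chr12:2857681-2877155, 55.6% GC), stood at 103, 71.8, 71.0 and 91.8 CPM in DMSO and at 109, 154, 81.0 and 67.5 CPM with lenvatinib. In TMM-scaled CPM these 3 GC-rich genes were highest at 60 µM, the library where CCNB1 and CDK1 were lowest. In the deposited TPM, scaled also by gene length, FOXM1 stood at 51.8 at 60 µM and was highest at 80 µM (64.0). Among the other 3 genes of the group, CCNA2 and CCNB2 lay below the DMSO range at both lower doses, and CDC25C stood at 12.2 to 14.7 CPM in DMSO and 5.95 to 14.1 CPM with lenvatinib.

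Among the Aurora kinases and their partners, TPX2, which activates Aurora A on the spindle (chr20:31739271-31801805, 46.8% GC), stood at 192, 244, 277 and 255 CPM in DMSO and at 108, 24.3, 188 and 205 CPM with lenvatinib. All of its lenvatinib libraries but 100 µM lay below the DMSO range. AURKA, the centrosomal kinase (chr20:56369389-56392337, 46.6% GC), stood at 112, 119.9, 70.6 and 116 CPM in DMSO and at 71.6, 13.7, 98.7 and 102 CPM with lenvatinib. AURKB, the kinase of the chromosomal passenger complex (chr17:8204733-8210598, 55.6% GC), stood at 101, 69.5, 45.05 and 79.7 CPM in DMSO and at 112, 143, 54.7 and 55.6 CPM with lenvatinib. At 60 µM AURKA was at its lowest and AURKB at its highest, while among the DMSO libraries both were lowest in DMSO 3. BIRC5 (survivin, a passenger protein; chr17:78214186-78225636, 52.2% GC; chosen after its values were seen) stood at 55.1, 80.6, 54.4 and 259 CPM in DMSO and at 232, 163, 60.8 and 42.01 CPM with lenvatinib. DMSO 4, 40 µM and 60 µM were high and the other libraries low, an order the GC slopes do not give.

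The spindle assembly checkpoint holds anaphase until every chromosome is attached. All 5 of its genes here, BUB1, BUB1B, BUB3, MAD2L1 and TTK, lay below the DMSO range at both lower doses. BUB1, MAD2L1 and TTK had no read at 60 µM. BUB3, which also has work outside mitosis, varied least among the DMSO libraries of these 5, from 98.1 to 115 CPM, and stood at 97.5, 68.8, 120.4 and 118 CPM with lenvatinib.

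At the centromere and kinetochore, CENPE, the motor that carries chromosomes to the metaphase plate (chr4:103105806-103198409, 35.3% GC), stood at 0.217, 3.62, 23.6 and 0.654 CPM in DMSO and at 1.82 and 1.61 CPM at 80 and 100 µM. It had no read at 40 or 60 µM, where 3 counts would be 0.128 and 0.483 CPM. The counts behind these values are 6, 129, 982 and 22 in DMSO and 0, 0, 87 and 71 with lenvatinib. CENPE varied more among the DMSO libraries than any other of the 42 genes, 108-fold from lowest to highest, and its 80 and 100 µM libraries lay inside that range. CENPF, a large kinetochore protein of G2 (chr1:214603195-214664588, 40.8% GC), stood at 11.0, 40.9, 179 and 16.8 CPM in DMSO and at 2.65, 1.77, 31.1 and 29.9 CPM with lenvatinib. NDC80 and NUF2, which bind microtubules in one complex, also lay below the DMSO range at both lower doses. CENPA, the centromeric histone, did not: it stood at 15.3 to 24.0 CPM in DMSO and 17.6 to 23.4 CPM with lenvatinib.

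The kinesin motors span the widest range of composition after the entry genes. KIF20B, a motor of late mitosis (chr10:89701610-89774939, 34.2% GC), stood at 0.76, 6.23, 27.7 and 1.40 CPM in DMSO and at 0.0855, 1.29, 3.68 and 3.73 CPM with lenvatinib, where 0.0855 CPM at 40 µM is under the limit for 3 counts. KIF18A, which damps chromosome oscillations (chr11:28020620-28108308, 37.0% GC), stood at 1.05, 8.51, 27.9 and 2.41 CPM in DMSO and at 0.0855, 0, 7.04 and 7.54 CPM with lenvatinib. For both, the higher doses sat between DMSO 4 and DMSO 2 and the lower doses rested on at most 8 reads. KIF20A, a motor of the central spindle (chr5:138178719-138187715, 48.4% GC), varied far less, at 107, 132, 143 and 129.8 CPM in DMSO and at 70.5, 27.2, 98.9 and 109 CPM with lenvatinib. Only its 100 µM library reached the DMSO range. KIF2C, a microtubule depolymerase (chr1:44739818-44767767, 50.4% GC; chosen after its values were seen), stood at 129.9, 129, 117 and 131 CPM in DMSO and at 107, 32.3, 112 and 114 CPM with lenvatinib. Its arms did not overlap, but outside 60 µM they came close, with DMSO 3 at 117 CPM and 100 µM at 114.

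Of the spindle, midzone and cytokinesis genes, DLGAP5, a spindle assembly factor (chr14:55148112-55191678, 38.4% GC), stood at 3.30, 15.9, 40.8 and 5.11 CPM in DMSO and at 0.684, 0, 12.4 and 14.4 CPM with lenvatinib. NUSAP1, PRC1, ANLN and ECT2 likewise lay below the DMSO range at both lower doses, and all 6 genes, HMMR included, were inside it at 80 and 100 µM. The mitotic chromosome genes did the same at the higher doses. MKI67, the proliferation antigen that coats mitotic chromosomes (chr10:128096659-128126385, 48.3% GC), stood at 21.8, 50.5, 168 and 36.6 CPM in DMSO and at 9.83, 9.49, 49.5 and 46.4 CPM with lenvatinib. TOP2A, the topoisomerase that untangles sister chromatids (chr17:40388516-40417950, 39.1% GC), stood at 33.3, 126, 285 and 66.7 CPM in DMSO and at 14.2, 3.86, 137 and 145 CPM with lenvatinib. SMC4, a condensin subunit, ran from 2.46 to 134 CPM in DMSO, 54.2-fold, and from 0.684 to 30.6 CPM with lenvatinib.

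The anaphase-promoting complex's activator CDC20 (chr1:43358955-43363203, 57.9% GC) stood at 593, 342, 243 and 465 CPM in DMSO and at 582, 657, 276 and 261 CPM with lenvatinib. PTTG1, securin, the substrate whose loss frees separase (chr5:160421822-160428744, 49.3% GC), stood at 140.1, 104, 79.3 and 146 CPM in DMSO and at 152, 183, 79.3 and 79.8 CPM with lenvatinib. Together with UBE2C, the complex's ubiquitin-conjugating enzyme, these genes were, in TMM-scaled CPM, lowest in DMSO 3 and highest at 60 µM. AURKB and PLK1 were lowest and highest there as well. DMSO 3 was the lowest library for these 5 alone (11.9%, against 27.7% of all tested genes). The order at 60 µM depended on the scaling. The TMM factors were 0.611 at 60 µM and 0.855 in DMSO 1. With scaling by library totals only, CDC20 and PLK1 were higher in DMSO 1 than at 60 µM. In the deposited TPM, PTTG1 was lowest at 60 µM (204, against 285 in DMSO 4). UBE2C stood at 403 TPM at 60 µM and 457 TPM in DMSO 2, and AURKB at 129.5 TPM at 60 µM and 137 TPM at 40 µM. Per length, in the deposited TPM, CDC20 (431 ± 50.3, SD, n = 4), UBE2C (429 ± 31.9) and PLK1 (345 ± 44.1) were the most abundant of the 42 genes in DMSO, and the differences between neighbours in that order lay within their SDs for CDC20 and UBE2C. CENPE was the least abundant, at 2.55 ± 4.44 TPM.

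**Figure D2:**
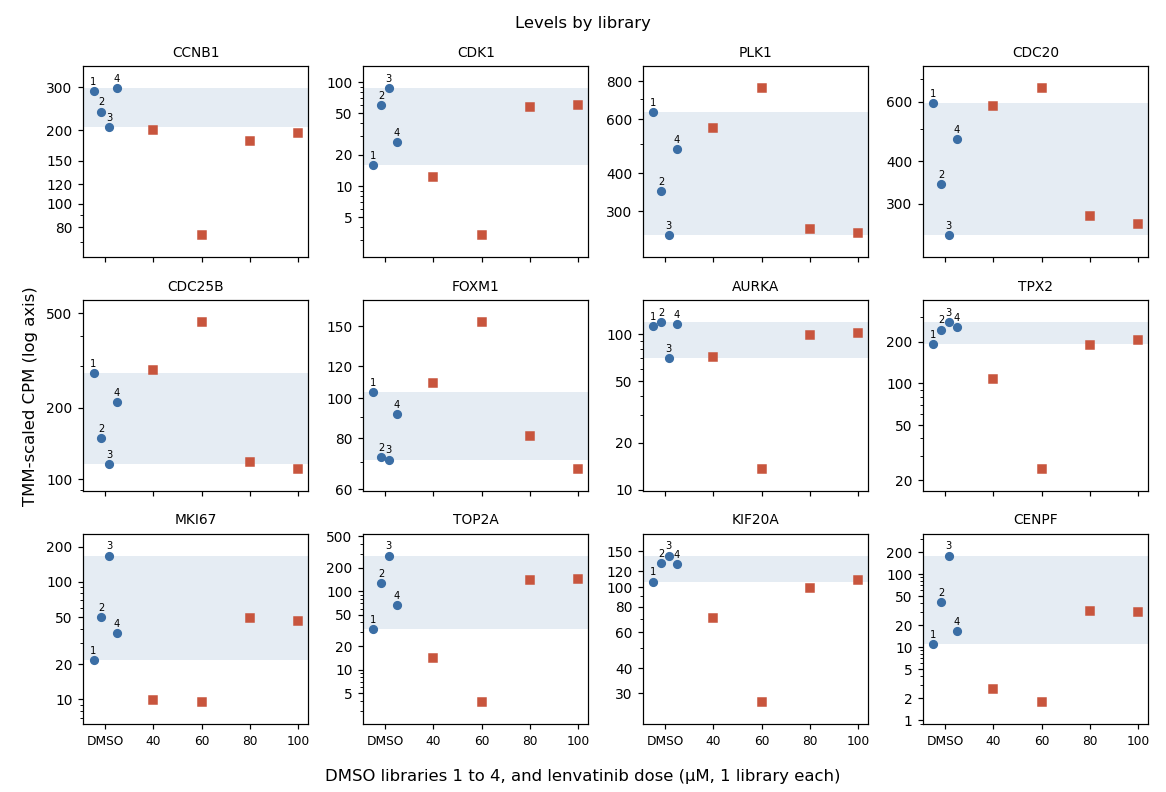
TMM-scaled CPM (log axes, which differ between panels) of 12 genes in the DMSO libraries (circles, numbered 1 to 4, band from lowest to highest) and in the lenvatinib libraries (squares, 1 per dose in µM). CCNB1 lies below the band at every dose, CDK1, TOP2A, MKI67 and CENPF only at 40 and 60 µM, and PLK1, CDC20, CDC25B and FOXM1 are highest at 60 µM.

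The first comparison asks how lenvatinib-treated cells differ from cells in DMSO when no account is taken of GC. By edgeR's quasi-likelihood test with Benjamini-Hochberg adjustment, none of the 42 genes passed an adjusted p of 0.05, and none of the 11827 tested genes did (percent called 0.0). At an unadjusted p under 0.05 there were 523 genes, 1.29% of those tested lower and 3.13% higher, and none of the 42, whose lowest was 0.0941 for CCNB1. DESeq2 called 94 genes (0.795%), again none of the 42, and limma-voom called none. The log2 fold change was below 0 for 33 of 42 genes, against 56.2% of all tested genes, with a median of -0.70 against -0.11. It was -0.66 ± 0.35 (SE) for CCNB1, -0.88 ± 0.56 for TPX2, -0.74 ± 0.41 for KIF20A, -2.95 ± 1.72 for CENPE and -2.02 ± 1.31 for KIF20B, and 0.10 ± 0.46 for PLK1, 0.11 ± 0.43 for CDC20 and 0.37 ± 0.52 for CDC25B. With scaling by library totals only the sign of PLK1 (-0.17) and CDC20 (-0.13) turned. The sizes followed GC content: 13 genes below 40% GC had a median of -1.17 and 5 genes at 55% or more had 0.28, where all tested genes of those classes had -0.57 and 0.48. Across the 42 genes, which share the same libraries, Pearson's r between GC content and log2 fold change was 0.78 (Spearman's rank correlation 0.78), as a description. With the 80 and 100 µM libraries alone, whose GC slopes lie inside the DMSO range, the sign of 9 of the genes given by library turned. It became negative for PLK1 (-0.70), CDC25B (-0.69), CDC20 (-0.58), PTTG1 (-0.53), AURKB (-0.39), FOXM1 (-0.16) and BIRC5 (-1.09), and positive for CDK1 (0.34) and TOP2A (0.17).

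**Figure D3:**
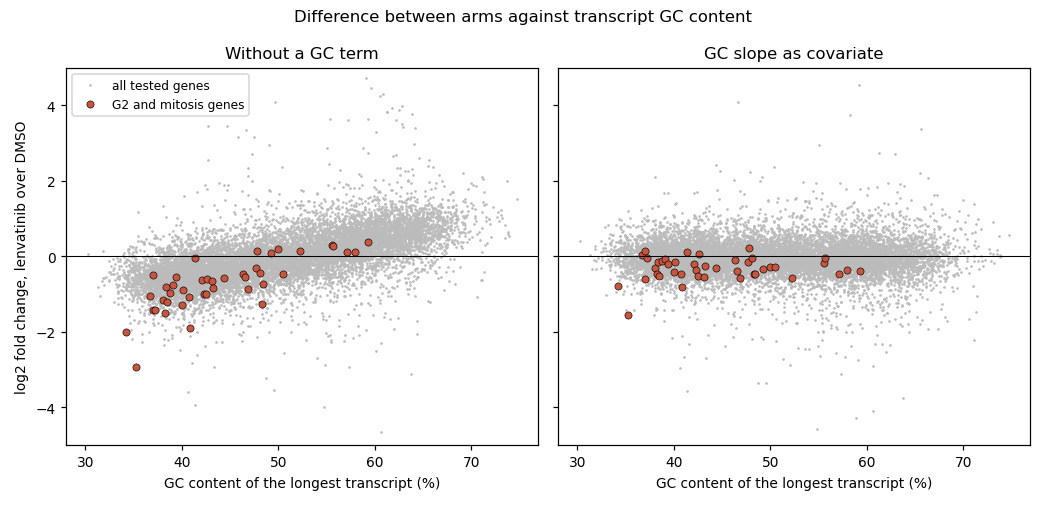
log2 fold change of lenvatinib over DMSO (y axis) against GC content of the longest transcript in percent (x axis), for the 42 genes (coloured points) over all tested genes (grey), without (left) and with (right) the GC slope as a covariate. The upward trend on the left has r = 0.78 across the 42 genes. On the right r is 0.12, where the covariate is itself drawn from GC content, and 37 of 42 points lie below 0. On the left 9 and on the right 3 grey points lie outside the axes.

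The second comparison keeps all 8 libraries and adds each one's GC slope to the model (5 residual degrees of freedom remain). CENPE was the 1 gene of 42 that passed, lower with lenvatinib by 1.55 on the log2 scale. Its log2 fold change was -1.55 ± 0.27 (SE; edgeR adjusted p = 0.0264). In all, 386 genes were called (3.26%), 211 of them lower (1.78%) and 175 higher (1.48%), so 1 of 42 (2.38%) is near the background. The call of CENPE was lost with limma-voom (adjusted p = 0.273), with DESeq2 (adjusted p = 0.161) and on leaving out any single library but 40 or 60 µM (adjusted p = 0.0872 to 0.216), and its size stayed between -1.73 and -1.42 over the left-out libraries. The log2 fold change was below 0 for 37 of 42 genes, against 57.2% of all tested genes, with a median of -0.31 against -0.06. By GC class the medians were now alike: -0.20 below 40% GC and -0.36 at 55% or more (all tested genes, -0.05 and -0.05), with -0.33, -0.35 and -0.29 between. The slopes were computed from these same counts and GC contents, so a weaker trend with GC follows largely from the adjustment.

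By role, the medians in this fit were -0.25 for mitotic entry (7 of 8 below 0), -0.49 for the Aurora kinases and partners (4 of 4), -0.27 for the checkpoint (4 of 5), -0.17 for the centromere and kinetochore (4 of 5), -0.41 for the kinesins (8 of 8), -0.18 for spindle and midzone (4 of 6), -0.35 for the anaphase-promoting complex genes (3 of 3) and -0.08 for the mitotic chromosome genes (3 of 3). None but CENPE passed the test. The closest were PLK1 at -0.47 ± 0.15 (edgeR adjusted p = 0.125) and CDC25B at -0.38 ± 0.12 (adjusted p = 0.129). Next came KIF20A at -0.47 ± 0.17 (adjusted p = 0.171) and PTTG1 at -0.35 ± 0.14 (adjusted p = 0.199). KIF18A stood at -0.60 ± 0.24 and DLGAP5 at -0.52 ± 0.21, both with an adjusted p of 0.21. CDK1 (0.15 ± 0.15), TOP2A (-0.08 ± 0.15) and FOXM1 (-0.06 ± 0.11) had values no larger than their errors.

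**Figure D4:**
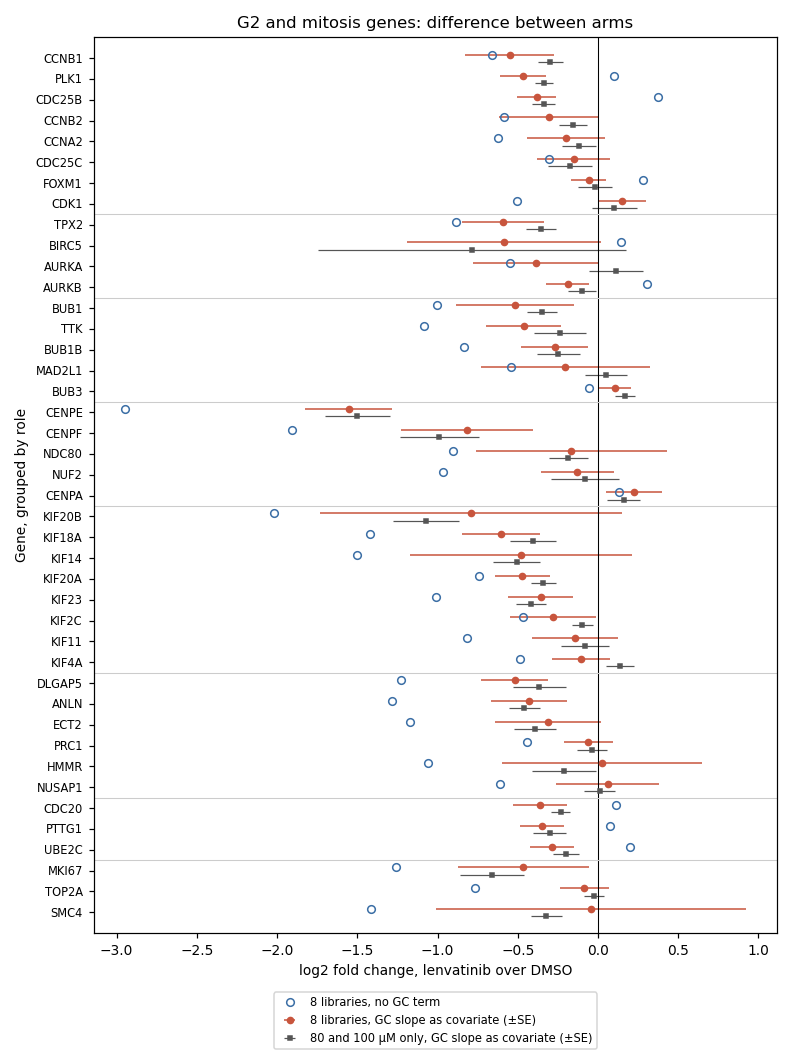
log2 fold change of lenvatinib over DMSO (x axis) for each gene (y axis, grouped by role): 8 libraries with no GC term (open circles), with the GC slope as a covariate (filled circles ± SE), and 80 and 100 µM alone with the covariate (squares ± SE). The open circles run from -2.95 to 0.37, and with the covariate 37 of 42 lie below 0.

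The 80 and 100 µM libraries sit at GC slopes of -0.58 and -0.60, inside the DMSO range, and were also compared alone with the 4 DMSO libraries, with the covariate. Here 13 of 42 genes (31.0%) were called, all lower, against 20.8% of all 11914 tested genes, 11.1% lower and 9.73% higher. They were ANLN, BUB1, CCNB1, CDC20, CDC25B, CENPE, CENPF, KIF14, KIF20A, KIF20B, KIF23, PLK1 and TPX2, and they come from every role but the mitotic chromosome genes. By edgeR, the log2 fold change of CENPE was -1.50 ± 0.20 (adjusted p = 0.00384). KIF20B stood at -1.07 ± 0.21 (adjusted p = 0.0122) and CENPF at -0.99 ± 0.25 (adjusted p = 0.048). Among the abundant genes the changes and their errors were smaller. PLK1 stood at -0.34 ± 0.06 (adjusted p = 0.00731) and CDC25B at -0.34 ± 0.07 (adjusted p = 0.015). KIF20A stood at -0.34 ± 0.08 (adjusted p = 0.0238), TPX2 at -0.35 ± 0.09 (adjusted p = 0.0334), CCNB1 at -0.30 ± 0.08 (adjusted p = 0.0363) and CDC20 at -0.23 ± 0.06 (adjusted p = 0.0266). CDK1 (0.10 ± 0.14), TOP2A (-0.02 ± 0.06), FOXM1 (-0.02 ± 0.11), AURKA (0.11 ± 0.17) and AURKB (-0.10 ± 0.09) did not pass, and MKI67 at -0.66 ± 0.20 had an adjusted p of 0.0706. The median of the 42 genes was -0.23, against 0.00 over all tested genes. In the same fit cell type markers were called as well: both tested epithelial markers, KRT8 and KRT18, were lower (median -0.87), HNF4A was lower (-2.72), and of 4 tested fibroblast, endothelial and immune markers 2 were lower and 1 higher. Their part in the genes' values was not tested. The comparison was chosen with the libraries' GC slopes known, and the 40 and 60 µM libraries have no part in it. It takes 80 and 100 µM, with 1 library each, as replicates, and leaves fewer residual degrees of freedom than the fit of 8 libraries.

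Leaving out the 60 µM library alone gave a like count, 16 of 42 genes (38.1%), all lower, against 23.3% of all tested genes, 13.7% lower. This fit holds every library of the 80 and 100 µM fit, with 40 µM added, so the counts are not separate results. The 12 genes shared with the 13 above were ANLN, BUB1, CCNB1, CDC20, CDC25B, CENPE, CENPF, KIF20A, KIF20B, KIF23, PLK1 and TPX2. Other settings of the fit of 8 libraries called fewer of the 42, again all lower. DESeq2 called 7 (16.7%, against 17.2% of all tested genes, 10.5% lower), CDC20, CDC25B, KIF20A, PLK1, PTTG1, TPX2 and UBE2C. DESeq2's size factors within edgeR gave 4 (9.52%, against 8.58%, 5.52% lower), and offsets smooth in GC content and length gave 5 (11.9%, against 9.81%, 5.36% lower). CDC25B, KIF20A and PLK1 were called in all 3. Without both DMSO 3 and 60 µM, the libraries at the ends of the GC slopes, 17 were called (40.5%, against 24.5%, 16.3% lower). Leaving out the 80 or the 100 µM library from the fit of 8 left no gene of the 42 called, and 0 and 9 of all tested genes.

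DMSO 2, with a GC slope of -0.50, is the DMSO library nearest to 80 and 100 µM, and can be set beside them with no model. Both lay below it for 29 of 42 genes (69.0%, against 43.8% of all tested genes) and both above it for 8, SMC4, KIF11, TOP2A, MAD2L1, BUB3, NUSAP1, KIF4A and CENPA (19.0%, against 38.9%). The median log2 difference from DMSO 2, with 0.5 CPM added, was -0.19 at 80 µM and -0.17 at 100 µM, against -0.03 and -0.02 over all tested genes. It was -0.83 and -0.97 for CENPE, -0.69 and -0.67 for KIF20B, -0.41 and -0.46 for PLK1 and -0.31 and -0.39 for CDC20. With 1 library on each side, no test applies.

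Among the lenvatinib libraries, edgeR also tested a dose slope, in log2 units per 20 µM. No gene passed, of the 42 or of all 11827 (percent called 0.0). At an unadjusted p under 0.05 there were 8 of the 42, 7 with a positive slope and BIRC5 with a negative one (-0.88), and 875 genes in all (5.39% of those tested positive and 2.0% negative). The median slope of the 42 genes was 0.87 per 20 µM, against 0.06, and 8 were below 0, against 47.0% of all tested genes. The libraries' GC slopes were higher at 40 and 60 µM than at 80 and 100 µM, and with 1 library a dose, dose and GC slope cannot be told apart. Across the 42 genes r between GC content and dose slope was -0.86, as a description. With the GC slope as a covariate their median dose slope was -0.02, with 22 of 42 below 0.

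In the fit of 8 libraries with the covariate, where 3.26% of all tested genes were called, other cell cycle lists gave these counts. Of 69 other G2 and mitosis genes, all tested, 1 was called lower and none higher in the fit with the covariate: ARHGAP11A, at -1.44 ± 0.28 (edgeR adjusted p = 0.037). Their median was -0.19. Of 37 DNA replication and S phase genes 1 was called, E2F1, a transcription factor of S phase entry, higher at 0.56 ± 0.11 (edgeR adjusted p = 0.0361), with a median of -0.05. None was called among 16 core subunits of the anaphase-promoting complex (median -0.11), 15 genes of the DREAM complex, B-MYB and NF-Y (0.11) or 18 cell cycle brakes and p53 targets (-0.06). MYBL2, which encodes B-MYB, stood at -0.48 ± 0.16 and did not pass (edgeR adjusted p = 0.15). With 80 and 100 µM alone, where 11.1% of all tested genes were called lower and 9.73% higher, 5 of the 69 were called lower and 2 higher. Of the S phase genes 2 were called lower and 2 higher, of the core subunits 1 and 3, of the DREAM, B-MYB and NF-Y genes 1 and 0, and of the brakes and p53 targets 2 and 0.

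Promoters of these genes carry the letters of shared late-cycle elements. A window from 250 bases before to 50 after the start was at hand from RefSeq (GRCh38.p14) for 35 of 42 genes, in 46 windows. The letters CCAAT, bound by NF-Y, stood on either strand in 33 of 46 windows (71.7%, against 34.6% of 35116 windows of all genes), and TTTGAA, the core of the CHR element to which the DREAM and B-MYB complexes bind, in 29 (63.0%, against 15.2%). Its variant TTCGAA stood in 3 (6.52%, against 1.45%), and both CCAAT and TTTGAA in 23 of 46 (against 5.9%). For 5 genes the last 110 bases before the start are printed, from the first RefSeq window of each gene that holds both there. They are on the gene's strand, with each match to CCAAT or TTTGAA, or to ATTGG or TTCAAA on the other strand, in capitals. These starts can differ from the gene coordinates given above. The CDK1 and KIF18A stretches lie inside those coordinates, and the CDC20 and PLK1 stretches partly do. The stretches are shown because the same letters stand before GC-rich genes (CDC20, PLK1) and AT-rich genes (CDK1, KIF18A). In TMM-scaled CPM these genes were at their highest and at their lowest, respectively, at 60 µM.
CDC20, chr1:43358871-43358980, plus strand: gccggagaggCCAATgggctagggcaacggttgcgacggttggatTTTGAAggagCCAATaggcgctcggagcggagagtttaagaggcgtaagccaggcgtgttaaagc
PLK1, chr16:23678779-23678888, plus strand: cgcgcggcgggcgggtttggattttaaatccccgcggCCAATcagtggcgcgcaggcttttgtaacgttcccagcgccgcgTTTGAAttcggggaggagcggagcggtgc
CDK1, chr10:60778368-60778477, plus strand: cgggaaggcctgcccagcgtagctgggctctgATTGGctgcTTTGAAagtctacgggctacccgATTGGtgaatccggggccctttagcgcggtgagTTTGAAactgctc
MKI67, chr10:128126424-128126533, minus strand: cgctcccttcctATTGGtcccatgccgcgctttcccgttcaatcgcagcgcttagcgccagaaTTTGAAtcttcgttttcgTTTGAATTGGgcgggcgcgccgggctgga
KIF18A, chr11:28108157-28108266, minus strand: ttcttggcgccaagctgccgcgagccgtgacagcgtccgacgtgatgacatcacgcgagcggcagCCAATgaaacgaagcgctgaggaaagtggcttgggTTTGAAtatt
In the MKI67 stretch a TTTGAA and an ATTGG overlap. All 5 stretches are 57.3% to 64.5% G and C, although the transcripts run from 37.0% in CDK1 and KIF18A to 57.9% in CDC20. In the fit without a GC term the 26 genes with TTTGAA in a window had a median log2 fold change of -0.87 and the 9 without it -0.62; with the covariate the medians were -0.24 and -0.38. The 26 genes also had the lower transcript GC, a median of 40.1% against 48.4%. A match of letters is a description and not a bound site.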

How the data were processed

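RNA was sequenced from 4 DMSO and 4 lenvatinib libraries of MHCC-97H cells. The authors deposited counts, whole numbers per gene, and the FPKM and TPM deposited by the authors beside them are scaled by gene length and library, per the file headers. Per the submitters' processing notes, FastQC, HISAT2, bedtools and StringTie were used on the GRCh38 build. Not given in the sources used here are their versions, the upstream annotation, the library kit and the strand setting. TPM served to compare levels between genes and, for FOXM1, PTTG1, UBE2C and AURKB, between libraries. FPKM was not used.

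The test was edgeR's robust quasi-likelihood test (edgeR 4.0.16, R 4.3.3) with TMM factors, on the 11827 of 20263 genes whose mean reached 1 CPM, which hold 99.9% of counts. Benjamini-Hochberg adjustment ran over all of them, with a threshold of 0.05. The fits were the arms with no GC term (6 residual degrees of freedom), the arms with the GC slopes of the libraries added (5), and a dose slope per 20 µM, centred at 70 µM, beside the arm. In the arm fits, doses differ only as spread. GC content and gene length come from the longest GENCODE v29 transcript. The fits were also run on simulated counts. For the arm fits these held a GC trend linear in GC content, and other forms were not tried. In the fits with the covariate each gene has its own coefficient on the libraries' GC slopes, which need not follow its GC content. Below 40% GC its median was -2.54 for the 13 members and -1.72 for all tested genes, in log2 per unit of GC slope. DMSO libraries differed beyond sampling noise (chi-square per degree of freedom at least 62.8), so no DMSO library was taken for a repeat deposit of another; this does not show that they are separate cultures.

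The 42 genes and all gene lists were chosen with earlier results of these data known. Genes given in every library are CCNB1, CDK1, MKI67, TOP2A, FOXM1, PLK1, AURKA and CDC20, any called gene, up to 6 more by the smallest unadjusted p of the fit with the covariate, and the 3 highest and 3 lowest fold changes of the fit without it, 18 in all. Of each other list up to 3 members were eligible. Alternatives were a filter at 5 CPM or none, library totals only, DESeq2 size factors, limma-voom (limma 3.58.1), DESeq2 1.42.0, offsets smooth in GC content and length (mgcv 1.9.3), a replicate block, 80 and 100 µM only, and leaving out each library. Fits with 40 and 60 µM only, and without the 2 libraries at either end of the GC slopes, were added after seeing the data. Promoter sequences are RefSeq's (GRCh38.p14). They were missing for FOXM1, AURKA, TPX2, BIRC5, BUB3, TTK and UBE2C.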

Additional observations from a re-analysis of the deposited data

Results flagged for a closer look

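Of 84 sets of 4 libraries (42 genes in each arm), 6 held a library far from the other 3, with a gap to the nearest other, as a share of the whole range, above Dixon's critical value. Chance flags about 1 in 20 such sets. CENPE was high in DMSO 3 (23.6 CPM), with a gap of 0.854 of the range. AURKA was low in DMSO 3 (70.6 CPM; 0.845), and so was KIF2C (117 CPM; 0.883). BIRC5 was high in DMSO 4 (259 CPM; 0.872). At 60 µM, CCNB1 (74.5 CPM; 0.843) and KIF2C (32.3 CPM; 0.908) were far below the other doses. DMSO 3 and 60 µM are also the libraries with the lowest and the highest GC slope (-0.99 and 1.82), and 60 µM has the fewest counts. The part of either in these values was not tested.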

How the results depend on the processing

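Without a GC term, DESeq2 called 94 genes and smooth offsets 13 in place of 0, none of the 42 in either. The median log2 fold change of the 42 genes was -2.43 with 40 and 60 µM only and ran from -1.03 to -0.18 when single libraries were left out, with 32 to 38 genes below 0. With the covariate, where 386 genes and 1 of the 42 were called, the counts were 1015 and 4 with DESeq2 size factors, 668 and 1 with library totals, 254 and 1 with no filter, 2038 and 7 with DESeq2, 830 and 0 with limma-voom, 2483 and 13 with 80 and 100 µM only, 2880 and 17 without DMSO 3 and 60 µM, and 1160 and 5 with smooth offsets. All of the 42 called in these fits were lower. Leaving out single libraries gave 0 to 2763 genes and 0 to 16 of the 42: 29, 66, 216 and 15 genes without DMSO 1 to 4, each with 0 of the 42, and 1006, 2763, 0 and 9 without 40, 60, 80 and 100 µM, with 2, 16, 0 and 0. The median of the 42 was -0.20 with library totals, -0.23 with 80 and 100 µM only, -0.20 with smooth offsets, and -0.34 to -0.24 over left-out libraries, with 33 to 39 genes below 0. The cause of these differences in calls was not tested. The dose slope's median was -0.024 with the covariate, with 22 genes below 0, and 0.75 to 1.43 over left-out libraries. With library totals 0 of the 42 had arms that did not overlap.

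The number in the sample titles was tried as a replicate block. Same-numbered libraries had correlations of 0.63, -0.46, 0.84 and -0.61 in their deviations from the arm means. These deviations also hold the GC slopes and the doses, so the correlations cannot tell whether the numbers pair cultures. With the replicate block and the covariate 232 genes and 0 of the 42 were called (CENPE, edgeR adjusted p = 0.104). Without the covariate the block called 0 genes and the median was -1.03.

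Signs turned in the fit without a GC term for PLK1 (-0.17), BIRC5 (-0.18), CDC20 (-0.13) and PTTG1 (-0.17) with library totals, and for PTTG1 (-0.014) with limma-voom. With 80 and 100 µM only they turned for PLK1 (-0.70), AURKB (-0.39), CDK1 (0.34), BIRC5 (-1.09), TOP2A (0.17), CDC25B (-0.69), FOXM1 (-0.16), CDC20 (-0.58) and PTTG1 (-0.53). With smooth offsets they turned for PLK1 (-0.11), CCNB1 (0.12), CDK1 (0.10), CDC25B (-0.014) and CDC20 (-0.23). Over left-out libraries PLK1 ran from -0.25 to 0.35, CDC20 from -0.13 to 0.34, CDC25B from -0.12 to 0.63, PTTG1 from -0.17 to 0.24 and BIRC5 from -0.35 to 0.93. With the covariate, TOP2A (0.033) and FOXM1 (0.063) turned with library totals, AURKA (0.11) with 80 and 100 µM only and FOXM1 (0.013) with smooth offsets. Over left-out libraries TOP2A ran from -0.13 to 0.017, FOXM1 from -0.14 to 0.020 and BIRC5 from -0.99 to 0.25. The dose slope turned with the covariate for CCNB1 (-0.14), CDK1 (-0.016), TPX2 (-0.11), KIF20A (-0.076), AURKA (-0.12), KIF2C (-0.20) and CENPE (-0.12), and that of CCNB1 ran from -0.073 to 0.69 over left-out libraries. Each dose has 1 library, and 60 µM the lowest depth, so at that dose levels under 0.483 CPM cannot be told from no reads.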

Other observations

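Several genes were read at one lower dose and not at the other. BUB1 had 243 counts and MAD2L1 356 at 40 µM, and neither had a read at 60 µM, where 3 counts would be 0.483 CPM and where BUB3, a partner of BUB1, stood at 68.8 CPM. KIF14 had no read at 40 µM and stood at 0.643 CPM at 60 µM. Of the 42 genes, 7 were at 0 at 60 µM and 2 at 40 µM, and none was in the other 6 libraries. The liver genes ALB, AFP, APOA1, APOA2 and TF, by contrast, had reads at 60 µM alone, from 2 to 10 each.

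The following values are of 3 cell cycle genes outside the 42 that are named above. E2F1 (62.5% GC) stood at 211, 143, 93.8 and 182 CPM in DMSO 1 to 4 and at 390.2, 953, 198 and 183 CPM at 40, 60, 80 and 100 µM. In TMM-scaled CPM it was highest at 60 µM, as PLK1 and CDC20 were. MYBL2 (60.5% GC) stood at 1383, 692, 436 and 1065 CPM in DMSO and at 1502, 2362, 482 and 465 CPM with lenvatinib. ARHGAP11A (39.8% GC) stood at 6.70, 11.9, 26.7 and 8.62 CPM in DMSO and at 1.54, 0, 5.74 and 6.09 CPM with lenvatinib, so that its arms did not overlap.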
